A study of Homo sapiens with 7 samples.

Results

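NF-kB is a family of dimeric transcription factors, and the genes described here encode its 5 subunits (RELA, NFKB1, REL, NFKB2 and RELB), 4 of its inhibitors (NFKBIA, NFKBIB, NFKBIE and TNFAIP3) and the chemokine CXCL8, a classical target. These 10 genes were chosen by name, as members and feedback targets of 1 pathway, with earlier results of these data known. The count table held 60591 rows, and all 10 genes were among the 18311 rows with enough counts to be tested. RNA was sequenced from TE11, an established human cell line labelled as esophageal squamous cell carcinoma. Vehicle cells received 0.07% DMSO (n = 3 libraries) and treated cells 200 µM diclofenac (n = 4), a nonsteroidal anti-inflammatory drug that blocks cyclooxygenases, and both groups were taken after 48 h. Metabolism and p53 are the subjects in the series title, and NF-kB is not named there. TE11 is 1 line, and since the labels do not name separate cultures, the spread between libraries of a group may be technical.

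In resting cells the inhibitors of the IkB type (NFKBIA, NFKBIB and NFKBIE) hold NF-kB dimers in the cytoplasm. In the canonical branch a kinase complex marks these inhibitors for degradation, and dimers of RELA or REL with the processed product of NFKB1 enter the nucleus. In the alternative branch the precursor made from NFKB2 is processed and acts mainly with RELB. Several genes of the family, among them NFKBIA, TNFAIP3, NFKB2 and RELB, are themselves targets of NF-kB and so form feedback loops. Most of this control acts on proteins, which RNA counts do not measure.

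Because NF-kB acts through kappaB sites, the bases upstream of each gene's start are shown first, from the RefSeq promoter table (GRCh38.p14), which held 13 start windows for 8 of the 10 genes; RELB and NFKBIE were not in it. The 250 bases before each start were searched on both strands for the standard kappaB consensus and for 2 short motifs, GGAATTTCC (the kappaB form of CXCL8, which can lie inside the consensus) and TGANTCA (AP-1). In the stretches below, given 5′ to 3′ on the gene's own strand, capitals mark the kappaB matches. They belong to the 7 genes with a match of either kappaB form, NFKB2 and NFKBIB at the second of their listed starts:
NFKB1: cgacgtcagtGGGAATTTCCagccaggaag
NFKB2: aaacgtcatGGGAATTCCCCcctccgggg
REL: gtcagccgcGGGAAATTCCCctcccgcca
NFKBIA: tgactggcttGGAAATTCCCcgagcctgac
NFKBIB: ggcgtggtgGGGAATTTCCCgcagggcgg
TNFAIP3: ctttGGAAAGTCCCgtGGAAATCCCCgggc
CXCL8: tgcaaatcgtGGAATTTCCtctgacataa

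These stretches lie at chr4:102501300-102501329 (NFKB1, plus strand), chr10:102394462-102394490 (NFKB2, plus), chr2:60881518-60881546 (REL, plus) and chr14:35404811-35404840 (NFKBIA, minus). The others lie at chr19:38899932-38899960 (NFKBIB, plus), chr6:137867188-137867217 (TNFAIP3, plus) and chr4:73740468-73740496 (CXCL8, plus). The consensus was found for 6 of the 8 genes, in 7 of 13 windows, against 9.96% of the 35116 windows in the table. NFKB2 had further matches, and for RELA none of these letters stood in its windows. The form GGAATTTCC occurred in 0.413% of all windows and TGANTCA in 6.57%. CXCL8 is shown at greater length, since it had the largest change of the 10 genes. The 150 bases before its start (chr4:73740419-73740568, plus strand) held both short motifs, in capitals, with TGACTCA upstream of the kappaB form:
CXCL8: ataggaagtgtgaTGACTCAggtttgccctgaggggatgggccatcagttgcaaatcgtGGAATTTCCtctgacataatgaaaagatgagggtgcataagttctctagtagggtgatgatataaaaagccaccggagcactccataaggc

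The window of the second NFKBIB start also held both short motifs, GGAATTTCC inside its consensus match and TGAATCA further upstream. A match of letters is a description and does not show that a factor binds there.

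Library totals ran from 19878696 to 26490829 counts, and 3 counts corresponded to 0.113 to 0.151 CPM, the usual scaling of counts to the library's total. Values below are normalized CPM, scaled by TMM factors, which align the bulk of genes between libraries. Scaling by total counts alone shifted the median over all genes by 0.18 on the log2 scale, so each direction is relative to that bulk. The squamous markers KRT5, KRT14, KRT6A and TP63 summed to at most 0.141 normalized CPM in any library, with KRT6A at 0 throughout, whereas 5 general epithelial markers summed to 77.4 to 89.5. Within that sum, KRT8 (mean 9.91 under vehicle and 20.4 under diclofenac) and EPCAM (1.98 and 2.90) were called higher and KRT18 (67.7 and 56.9) lower. Among markers of leukocytes, cells that make much CXCL8, CD14 was called higher, with 32 counts over the vehicle libraries and 99 over the diclofenac libraries. PTPRC had 2 and 6 counts, CD3E 0 and 1, CD68 5 and 5, LYZ 3 and 2 and MS4A1 1 and 14. Fibroblast markers, mostly COL1A1, summed to 16.3 to 19.2 normalized CPM under vehicle and 12.6 to 14.4 under diclofenac. The 4 endothelial markers, all untested, summed to 0.268 to 0.446 under vehicle and 0.592 to 1.08 under diclofenac, without overlap, with PECAM1 at 2 and 21 counts. The part of these markers' changes in the results was not tested. In bulk samples, fewer cells expressing a gene and less RNA per cell cannot be told apart.

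The family did not move as a block. Of the 10 genes, 5 rose under diclofenac (RELB, REL, TNFAIP3, NFKBIE and CXCL8), 2 fell (RELA and NFKBIB) and NFKB1, NFKB2 and NFKBIA did not pass the test (edgeR's quasi-likelihood test, Benjamini-Hochberg adjusted p under 0.05). Over the whole table, 59.7% of tested genes passed it, 30.2% as higher and 29.5% as lower, so 7 of 10 is near the background. For 8 of the 10 genes no library of one group reached the range of the other. Diclofenac lay above vehicle for 6 of them, against 29.5% of tested genes, and below for 2, against 29.0%. The median log2 fold change of the 10 genes was 0.18, beside 0.021 over all tested genes. With a further condition of at least a 2-fold change, 1 of the 10 genes was called, CXCL8, which met the count filter through the diclofenac libraries alone. The share of all tested genes under that condition was not counted.

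**Figure D1:**
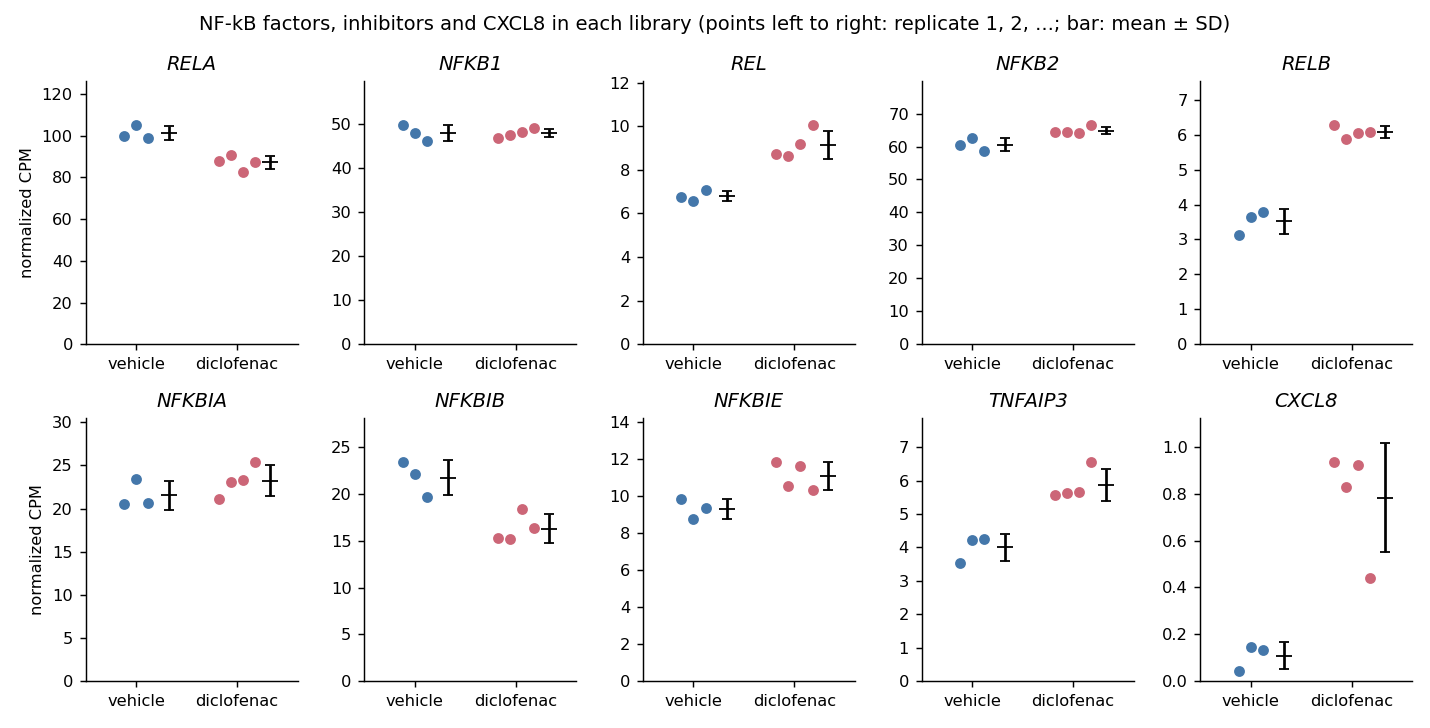
Level of each gene in normalized CPM (vertical axis, from 0) in the 3 vehicle and 4 diclofenac libraries, 1 point a library, with the mean and SD beside them. RELB, REL, TNFAIP3, NFKBIE, NFKB2 and CXCL8 lie higher in every diclofenac library than in any vehicle library, RELA and NFKBIB lie lower, and NFKB1 and NFKBIA overlap.

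Among the subunits of the canonical branch, RELA, which carries the main activation domain, had the highest level and fell. RELA stood at 99.9, 105 and 98.9 normalized CPM in the vehicle libraries and at 87.9, 90.5, 82.8 and 87.5 in the diclofenac libraries. Every diclofenac library was below every vehicle library. The log2 fold change was -0.22 (SE 0.0455, edgeR adjusted p = 4.95e-04), and by total counts alone it was -0.036 with an adjusted p of 0.524, so the fall held relative to the bulk of genes but not to the total. RELA is among the 4083 tested genes at 6 log2 CPM and above, of which 60.2% were called lower, with a median log2 fold change of -0.19.

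NFKB1, the precursor of the usual partner of RELA, stood at 49.9, 48.0 and 46.2 normalized CPM under vehicle and at 47.0, 47.5, 48.2 and 49.2 under diclofenac. The groups overlapped throughout. Its log2 fold change was -0.00080 with a 95% interval of -0.10 to 0.099 (edgeR adjusted p = 0.989), and 0.18 with an adjusted p of 0.00364 by total counts alone.

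REL, the subunit best known from lymphocytes, rose from a low level. Its values were 6.77, 6.56 and 7.05 normalized CPM under vehicle and 8.72, 8.64, 9.17 and 10.1 under diclofenac, with no overlap. The log2 fold change was 0.43 (SE 0.0904, edgeR adjusted p = 5.30e-04). In its class of 2 to 4 log2 CPM, which also holds RELB, NFKBIE and TNFAIP3, 39.6% of 3338 tested genes were called higher and the median log2 fold change was 0.12. An annotated RNA on the same strand shares 5702 exon bases with REL, and no counted row carries its name.

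In the alternative branch, RELB rose and NFKB2 did not pass the test. RELB stood at 3.12, 3.64 and 3.79 normalized CPM under vehicle and at 6.28, 5.88, 6.05 and 6.09 under diclofenac. These values rest on 75 to 85 counts a vehicle library and 134 to 157 counts a diclofenac library. The diclofenac libraries lay close together and well above the vehicle libraries. RELB had a log2 fold change of 0.79 (SE 0.110, edgeR adjusted p = 7.79e-06), a 1.73-fold rise, and 7.82% of the other genes in its level class had a larger value.

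NFKB2 stood at 60.3, 62.6 and 58.7 normalized CPM under vehicle and at 64.3, 64.3, 64.1 and 66.6 under diclofenac. All 4 diclofenac libraries were above the vehicle libraries, by a small margin. Its log2 fold change of 0.099 (95% interval 0.0045 to 0.19) had an edgeR adjusted p of 0.0661. The call depended on the scaling and the filter: it passed at 0.19 with upper-quartile factors (adjusted p = 0.00152), at 0.28 by total counts alone (3.55e-05) and at 0.13 with a stricter filter (0.0189).

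**Figure D2:**
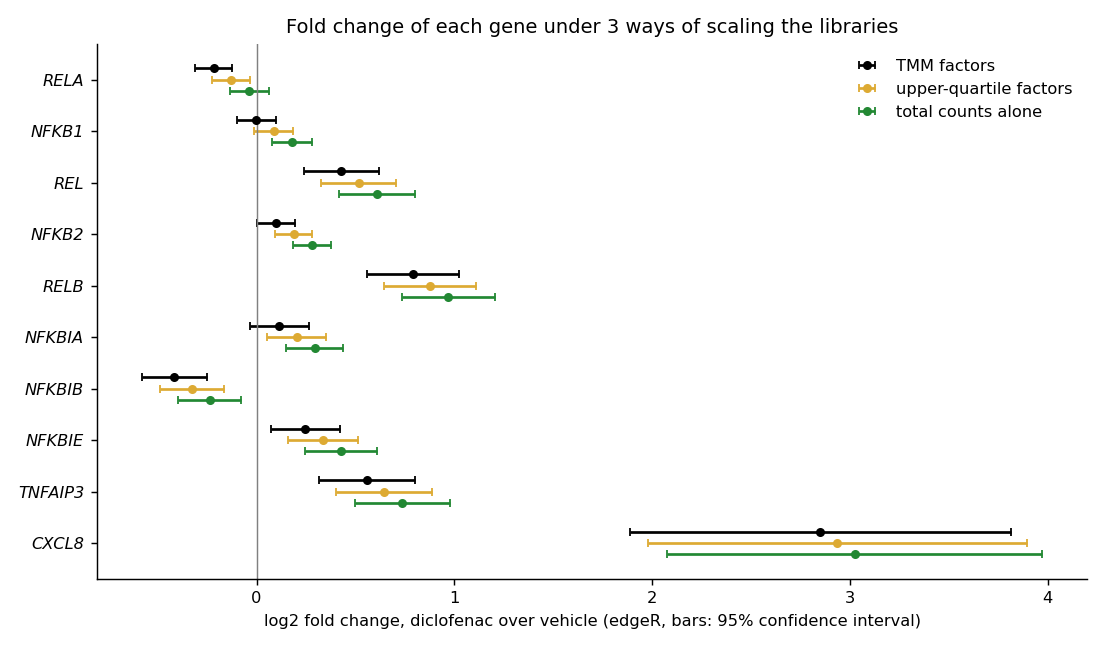
Log2 fold change of diclofenac over vehicle (horizontal axis) for the 10 genes with 95% confidence intervals, under TMM factors, upper-quartile factors and total counts alone. The interval of RELA is below 0 with TMM factors (-0.31 to -0.12) and spans 0 by total counts alone (-0.14 to 0.064), while those of REL, RELB, NFKBIE, TNFAIP3 and CXCL8 stay above 0 and that of NFKBIB below 0 under all 3.

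The inhibitors went in different directions. NFKBIA, which encodes IkB alpha, the rapidly renewed inhibitor of the canonical branch, stood at 20.5, 23.5 and 20.6 normalized CPM under vehicle and at 21.1, 23.0, 23.3 and 25.4 under diclofenac. The groups overlapped. Its log2 fold change was 0.11 (95% interval -0.035 to 0.26, edgeR adjusted p = 0.175). NFKBIA passed at 0.20 with upper-quartile factors (adjusted p = 0.0195) and at 0.29 by total counts alone (0.00113).

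NFKBIB, encoding IkB beta, fell. Its values were 23.5, 22.1 and 19.7 normalized CPM under vehicle and 15.3, 15.2, 18.5 and 16.4 under diclofenac. The highest diclofenac library, replicate 3, was still below the lowest vehicle library. The log2 fold change was -0.41 (SE 0.0783, edgeR adjusted p = 1.90e-04), and 12.4% of the other genes between 4 and 6 log2 CPM had a lower value. SIRT2, on the opposite strand, shares 40 exon bases with NFKBIB and had 3081 counts under vehicle and 3211 under diclofenac over all libraries. Whether the counting kept the strands apart is unknown.

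NFKBIE, encoding IkB epsilon, and TNFAIP3, encoding A20, a ubiquitin-editing enzyme that limits signalling from TNF receptors, both rose. NFKBIE stood at 9.82, 8.75 and 9.37 normalized CPM under vehicle and at 11.9, 10.6, 11.6 and 10.3 under diclofenac. The groups were separate but close. Its log2 fold change was 0.25 (SE 0.0836, edgeR adjusted p = 0.0167), and the call was lost without vehicle replicate 2 (adjusted p = 0.0856) and with the DESeq2 Wald test (0.0531).

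TNFAIP3 stood at 3.53, 4.23 and 4.24 normalized CPM under vehicle and at 5.58, 5.64, 5.66 and 6.57 under diclofenac, replicate 4 being the highest. No library of one group reached the other. Its log2 fold change was 0.56 (SE 0.115, edgeR adjusted p = 4.26e-04), a 1.47-fold rise. In the level class it shares with REL, RELB and NFKBIE, 16% of the other genes had a larger log2 fold change, against 23.2% for REL and 38.2% for NFKBIE.

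CXCL8, which encodes interleukin-8, a chemokine that attracts neutrophils, rose most in ratio and remained the weakest of the 10 genes. It had 1, 3 and 3 counts in the vehicle libraries and 20, 21, 24 and 11 in the diclofenac libraries. In normalized CPM these were 0.0406, 0.146 and 0.134 under vehicle and 0.938, 0.828, 0.925 and 0.441 under diclofenac. The groups did not overlap, and diclofenac replicate 4 was the lowest of its group. The exact Poisson interval of its 11 counts, 5.49 to 19.7, overlaps those of the other diclofenac libraries.

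Over the groups CXCL8 had 7 counts under vehicle and 76 under diclofenac, a ratio of count rates of 7.52 with a 95% exact interval of 3.48 to 19.3, which covers counting error only. Leaving out each library in turn gave ratios of 5.58 to 9.16. The edgeR log2 fold change was 2.85 (SE 0.458, adjusted p = 3.65e-05). CXCL8 met the filter through the diclofenac libraries alone, its vehicle libraries being at or near the level of 3 counts. Below 0 log2 CPM, 33.6% of 2591 tested genes were called higher and 3.9% lower, and the median log2 fold change of 0.40, with quartiles of -0.047 and 1.00, was the largest of the 5 level classes. The share called higher was larger in the next classes, 35.9% from 0 to 2 log2 CPM and 39.6% from 2 to 4. In the class of CXCL8 itself, below 0 log2 CPM, 36 of the other 2590 genes had a larger log2 fold change. How many of the 2590 met the filter through the diclofenac libraries alone was not counted, so this place is only a description. Rows too weak for the test together held 986 to 999.9 CPM in the vehicle libraries and 1621 to 1681 CPM in the diclofenac libraries, and between 26762 and 27403 rows had a count under vehicle against 29683 to 30570 under diclofenac. What part this wider detection has in the rise of CXCL8 was not tested.

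**Figure D3:**
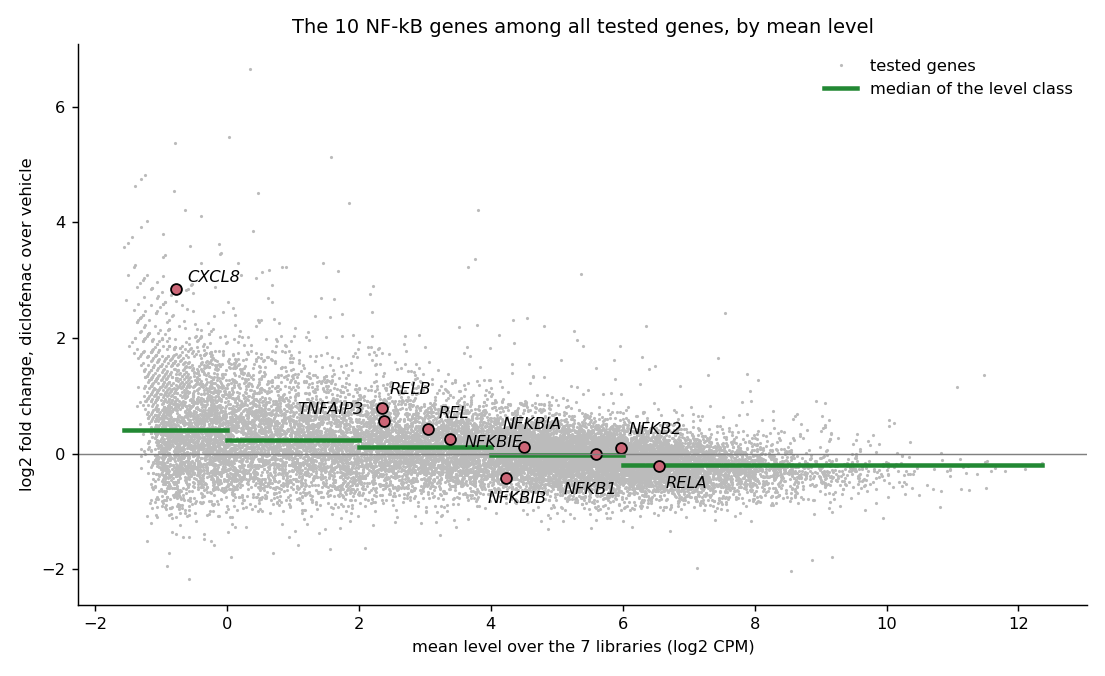
Log2 fold change (vertical axis) against mean level over the 7 libraries (log2 CPM, horizontal axis) for all 18311 tested genes in grey, with the 10 NF-kB genes marked and the median of each level class as a green line. The medians go from 0.40 in the weakest class to -0.19 in the strongest, and CXCL8, at 2.85, lies far above the line of its class, while RELA, at -0.22, lies close to that of its class. CXCL8 met the count filter through the diclofenac libraries alone.

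Per length of transcript, RELA and NFKB2 led and CXCL8 was last in both groups. Levels were divided by the merged exon length in GENCODE v29 (normalized CPM per kb), which understates genes such as REL whose 13.17 kb of annotated exon may not all be used. Under vehicle RELA led at 18.5 ± 0.612 (SD, n = 3), followed by NFKB2 at 13.5 ± 0.441. NFKBIB at 9.37 ± 0.817 and NFKBIA at 9.08 ± 0.705 came next, with overlapping ranges, and then NFKB1 at 7.67 ± 0.295. NFKBIE stood at 3.61 ± 0.208, RELB at 1.16 ± 0.116, TNFAIP3 at 0.792 ± 0.0806, REL at 0.516 ± 0.0188 and CXCL8 at 0.0469 ± 0.0253, each below the range of the one before. With the exon length of the basic GENCODE transcript set, an alternative chosen after seeing the data, RELA stood at 29.9, 1.61 times its value above, and NFKBIA at 11.3 came before NFKBIB at 10.2, again with overlapping ranges.

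Under diclofenac the gap between the leading pair narrowed, with RELA at 16.0 ± 0.590 and NFKB2 at 14.5 ± 0.260 normalized CPM per kb (SD, n = 4). The size of this gap depended on the exon length. With the basic set RELA and NFKB2 stood at 25.7 and 17.6 under diclofenac, against 29.9 and 16.4 under vehicle. NFKBIB at 7.02 ± 0.654 lay below the range of NFKBIA at 9.79 ± 0.750, also with the basic set, and overlapped with NFKB1 at 7.67 ± 0.154. The weaker genes kept their order, with NFKBIE at 4.30 ± 0.291, RELB at 2.00 ± 0.0551, TNFAIP3 at 1.16 ± 0.0938, REL at 0.695 ± 0.0495 and CXCL8 at 0.344 ± 0.103.

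Ratios of raw counts within a library do not depend on how libraries are scaled. RELB over RELA was 0.0313, 0.0347 and 0.0384 in the vehicle libraries and 0.0715, 0.0649, 0.0731 and 0.0696 in the diclofenac libraries, a mean 2.01 times as high. NFKBIA over RELA was 0.212 ± 0.00953 under vehicle (SD, n = 3) and 0.267 ± 0.0236 under diclofenac (n = 4), and NFKBIE over RELA was 0.0921 ± 0.00788 and 0.128 ± 0.0118. The groups were separate for all 3 of these ratios, so RNA for IkB alpha and IkB epsilon was higher relative to RELA. RELA itself had a log2 fold change of -0.22, beside a median of 0.021 over all tested genes. NFKBIA did not pass the test on its own. RELA is in the level class with a median log2 fold change of -0.19. The class of NFKBIA had a median of -0.016, and that of NFKBIE and RELB had 0.12. What share of all genes was higher relative to RELA was not counted. NFKB2 over NFKB1 was 1.26 ± 0.0481 and 1.35 ± 0.0165, also without overlap. NFKBIB over RELA overlapped, at 0.215 ± 0.0182 and 0.188 ± 0.0247. The overlap came from diclofenac replicate 3 at 0.223. The other diclofenac libraries, at 0.168 to 0.187, were below the vehicle range of 0.199 to 0.235. Both genes fell, with log2 fold changes of -0.41 for NFKBIB and -0.22 for RELA. These ratios are given without a test.

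**Figure D4:**
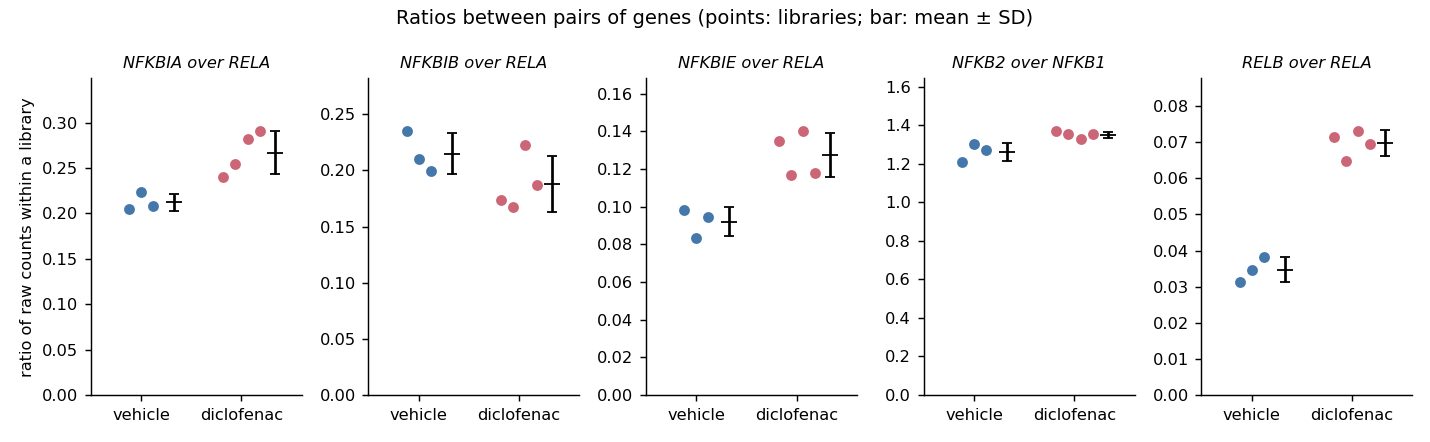
Ratio of raw counts of gene pairs within each library (vertical axes, from 0), 1 point a library, with mean and SD. The 4 diclofenac libraries lie above the 3 vehicle libraries for NFKBIA, NFKBIE and RELB over RELA and for NFKB2 over NFKB1, and overlap with them for NFKBIB over RELA.

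The rest of the pathway was taken as 5 lists holding 109 genes, of which 71 were tested, 25 rose, 14 fell and 32 did not pass. These are 35.2% higher and 19.7% lower, beside 30.2% and 29.5% of all tested genes. The lists were chosen with earlier results of these data known, so their shares, here and below, are only a description. Of the 71 genes, 9 met the count filter through the diclofenac libraries alone, 6 of them called higher, and of the other 62 genes 19 were higher and 14 lower. Among the kinases and adaptors that carry the signal, 6 of 26 tested genes (23.1%) were higher and 8 (30.8%) lower, near the shares of all tested genes, with a median log2 fold change of 0.025. TRAF2, an adaptor at the TNF receptor, was at 61.4 ± 2.68 normalized CPM under vehicle (SD, n = 3, and n = 4 under diclofenac, here and below) and fell to 39.6 ± 3.34, a log2 fold change of -0.63 (SE 0.0603, edgeR adjusted p = 8.61e-08). TRADD, which recruits it, fell from 19.96 ± 1.65 to 14.9 ± 1.56. TAB2, which couples ubiquitin chains to the kinase MAP3K7, rose from 74.9 ± 4.84 to 102 ± 1.46. Of the core IkB kinase complex, looked up for its role after values were seen, CHUK and IKBKB had log2 fold changes of -0.0074 and 0.093 and did not pass (edgeR adjusted p = 0.896 and 0.137), and IKBKG fell by 0.22 on the log2 scale (edgeR adjusted p = 0.00421), a value that is uncertain because reads could be shared with a near-identical pseudogene. IKBKE had 10 and 12 counts over the vehicle and diclofenac libraries. By total counts alone, 14 kinases and adaptors rose and 3 fell, beside 8615 and 3039 of all 18311 tested genes.

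Of 10 tested receptors, 5 rose (50%, beside 30.2% of all tested genes) and 1 fell (10%, beside 29.5%), with a median log2 fold change of 0.44. A mean below 4 log2 CPM was found for 7 of these 10. In the level classes there, 33.6% to 39.6% of genes were called higher and 3.9% to 20.9% lower. CD40, TLR5 and TLR6 met the filter through the diclofenac libraries alone, and of the other 7 receptors 3 rose and 1 fell. TNFRSF12A, the receptor for the cytokine TWEAK, was at 8.03 ± 0.550 normalized CPM under vehicle and rose to 18.4 ± 2.54, a log2 fold change of 1.19 (SE 0.104, edgeR adjusted p = 2.88e-08). TLR5, a receptor for bacterial flagellin, rose from 0.646 ± 0.266 to 1.66 ± 0.288 and TLR6 from 0.269 ± 0.122 to 0.655 ± 0.127. The other rises, named after values were seen, were TNFRSF1A and TNFRSF10B, receptors for TNF and TRAIL, at log2 fold changes of 0.30 and 0.81, and the fall was that of IL17RA at -0.44. TLR1 went from 4 to 21 counts over all libraries of a group and TLR3 from 14 to 27, neither tested. The receptors for CXCL8 were at or near 0, CXCR1 with 0 and 4 counts and CXCR2 with 1 and 10.

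Ligands that start the pathway were nearly undetected in both groups. Of 11 ligands only TNFSF12, which encodes TWEAK, could be tested, and it did not pass (log2 fold change -0.25, edgeR adjusted p = 0.358). The other 10 together had 11 counts under vehicle and 40 under diclofenac. Among these, named after values were seen, TNF had 0 and 2 counts, IL1B 0 and 1 and IL1A 4 and 10. A count of 0 over the vehicle libraries allows up to 0.0413 CPM.

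Of 15 tested further inhibitors and atypical IkB proteins, 3 (20%) were higher and 4 (26.7%) lower, beside 30.2% and 29.5% of all tested genes, with a median log2 fold change of -0.046. BCL3, an atypical IkB protein that works with NFKB1 and NFKB2 products in the nucleus, was at 1.46 ± 0.149 normalized CPM under vehicle and rose to 4.02 ± 0.279, a log2 fold change of 1.45 (SE 0.147, edgeR adjusted p = 1.76e-07). NKIRAS1, a Ras-like protein that binds IkB proteins, rose from 13.2 ± 0.629 to 17.8 ± 0.730, and PDLIM2, which promotes breakdown of RELA, fell from 7.40 ± 0.555 to 4.85 ± 0.142. These counts depended on the scaling, with 5 higher and 2 lower under upper-quartile factors and 6 and 1 by total counts alone. Over all 18311 tested genes, 6994 were higher and 4171 lower under upper-quartile factors, and 8615 and 3039 by total counts alone.

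Of 36 classical target genes 19 were tested, of which 11 rose (57.9%, beside 30.2% of all tested genes) and 1 fell (5.26%, beside 29.5%), with a median log2 fold change of 0.29. Of these 19, 13 had a mean below 4 log2 CPM, where 33.6% to 39.6% of each level class was called higher. In those classes 3.9% to 20.9% were called lower, and the median log2 fold changes were 0.40, 0.23 and 0.12. CXCL3, BIRC3, IER3, PLAU and PTGS2 met the filter through the diclofenac libraries alone, and of the other 14 targets 7 rose and 1 fell. PLAU, the urokinase that activates plasminogen, was at 0.424 ± 0.171 normalized CPM under vehicle and rose to 1.30 ± 0.0713, a log2 fold change of 1.64 (SE 0.268, edgeR adjusted p = 4.54e-05), and the cytokine LIF rose from 1.46 ± 0.174 to 3.56 ± 0.346. The fall, named after values were seen, was that of SOD2, the mitochondrial superoxide dismutase, from 136 ± 4.09 to 93.6 ± 5.39. The count of 11 went to 7 without vehicle replicate 3. Of the 17 untested targets, CCL2, CCL5 and CSF2 had no count in any library.

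Close relatives of CXCL8 in the CXC family were also weak. CXCL3, tested only through its diclofenac libraries, had 6, 6 and 0 counts under vehicle and 11, 13, 11 and 13 under diclofenac (log2 fold change 1.44, SE 0.481, edgeR adjusted p = 0.0152), a call lost without vehicle replicate 3 (adjusted p = 0.0763). CXCL2, untested, went from 7 to 30 counts, a ratio of count rates of 2.97 with a 95% exact interval of 1.28 to 8.01. The chemokine CCL20, of another family, went from 2 to 20 counts, with an interval of 1.68 to 61.15. CXCL1, looked up after values were seen, had 7 and 8 counts, a ratio of 0.792 with an interval of 0.251 to 2.57, which lies below the interval of CXCL8 (3.48 to 19.3). These intervals cover counting error, and the difference between the genes was not tested.

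**Figure D5:**
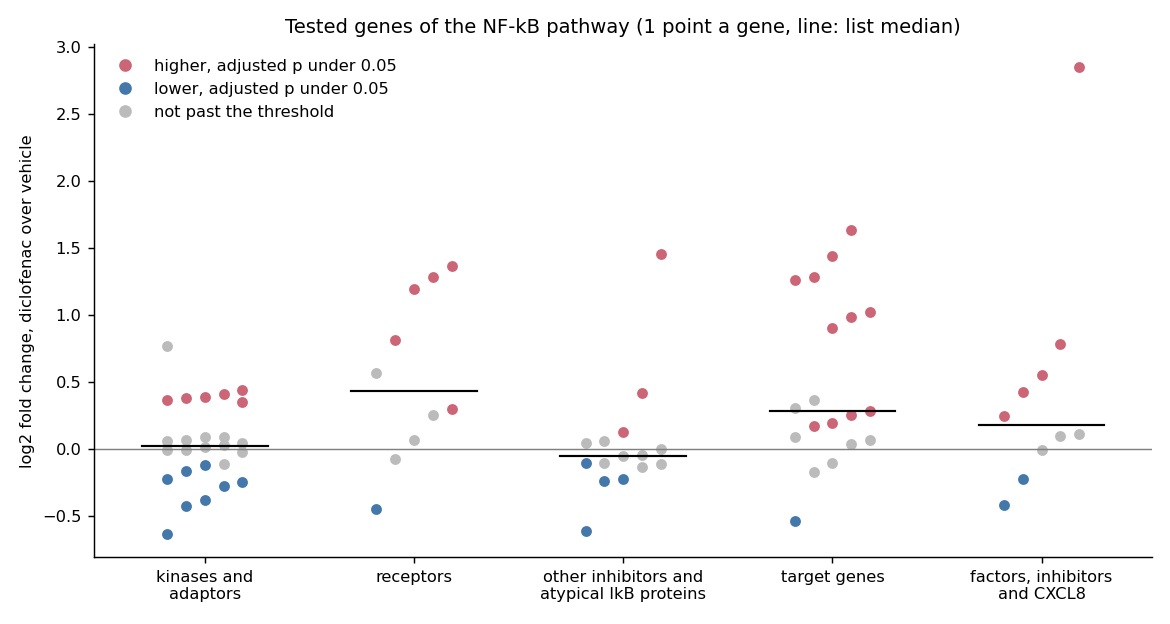
Log2 fold change of every tested gene (vertical axis) in 4 pathway lists and in the 10 NF-kB genes, 1 point a gene, coloured by the call and with the list median as a line. The medians are 0.025 for kinases and adaptors, 0.44 for receptors, -0.046 for other inhibitors and 0.29 for target genes; the ligands, with 1 tested gene, are left out.

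CXCL8 was the gene of the 10 with the largest change, and the genes whose course over the 7 libraries was nearest to it were DNAH17, AC108134.2 and DDR2. Nearness was the root mean square difference of log2 CPM after centring each gene, among 14045 tested genes with a mean of at least 1 log2 CPM, and came to 0.33, 0.37 and 0.37 log2 units. DNAH17, a dynein heavy chain, went from 1.16 to 4.76 normalized CPM, AC108134.2 from 0.923 to 4.91 and DDR2, a collagen receptor kinase, from 2.60 to 10.8. The log2 CPM of weak rows are drawn together by the prior count of 2, so CXCL8 was compared here on a compressed scale.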

How the data were processed

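The deposited file was a table of raw counts per gene, which the authors made from 7 TE11 libraries. Per the labels' protocols, the kit was a directional one. DESeq (version not given) and GRCm38, a mouse build, stand in the submitters' processing notes, while the rows carry human symbols, 91.1% of which were found in GENCODE v29. Aligner, counter and use of strand are not given in the sources used here.

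Rows were filtered with filterByExpr (minimum count 10, minimum total 15) and scaled by TMM factors. Diclofenac was compared with vehicle by the quasi-likelihood test of edgeR 4.0.16 in R 4.3.3, over all genes, with Benjamini-Hochberg adjustment and group as the only term. SE came from the F statistic. Alternatives used DESeq2 1.42.0 and limma 3.58.1. The test was tried first on simulated counts. Libraries of a group differed beyond sampling noise (chi-square per degree of freedom 2.17 to 7.40).

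The genes and lists were chosen with earlier results of these data known. Beyond the 10 genes, the text names the 3 called genes of each list with the largest change and up to 2 untested ones with at least 20 counts; others are marked. Exact intervals and floors cover counting error only. Values of 1 leukocyte marker, and the sum that holds it, are not reported here.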

Additional observations from a re-analysis of the deposited data

Results flagged for a closer look

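With 4 diclofenac libraries, 5 of 27 named genes had 1 library standing apart from the other 3 (gap over range above 0.829), where chance gives about 1 in 20. For NFKB2 replicate 4, at 66.6 normalized CPM, stood above the others at 64.1 to 64.3 (gap over range 0.912). TNFAIP3 did the same, with replicate 4 at 6.57 against 5.58 to 5.66 (0.915). In BCL3 and NKIRAS1 replicate 4 stood below the others, at 3.61 against 4.10 to 4.20 (0.834) and at 16.7 against 18.1 to 18.2 (0.942). CXCL3 had replicate 3 at 0.424 against 0.513 to 0.521 (0.914). Its raw counts in replicates 1 to 4 were 11, 13, 11 and 13, so replicate 3 had the same count as replicate 1. Without diclofenac replicate 4, 5 of the 10 NF-kB genes rose and 2 fell, the same numbers as with it.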

How the results depend on the processing

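Of the 10 NF-kB genes, 5 higher and 2 lower became 7 and 2 with upper-quartile factors and 8 and 1 by total counts alone. Over all 18311 tested genes, 5535 higher and 5402 lower became 6994 and 4171 with upper-quartile factors and 8615 and 3039 by total counts alone. Requiring a 2-fold change left 1 of the 7 genes called with TMM, and the share of all tested genes under that condition was not counted. Over the pathway lists, 25 higher and 14 lower became 30 and 9 with upper-quartile factors and 40 and 6 by total counts alone. The share of higher calls among all called genes was 50.6% with TMM, 62.6% with upper-quartile factors and 73.9% by total counts alone. NFKB1, near 0, changed sign to 0.088 with upper-quartile factors, 0.18 by total counts alone and 0.026 with the stricter filter, and ran from -0.036 to 0.023 when 1 library was left out. In the 16 alternatives run, REL, RELB, NFKBIB and TNFAIP3 kept their call and direction, as did CXCL8 in 15, the stricter filter having removed it. Among these, leaving out diclofenac replicate 4 and using replicates 1 to 3 without a block are the same fit, counted under both names. RELA lost its call in 1 alternative and NFKBIE in 2. Same-numbered libraries did not deviate together (correlations 0.000867, 0.0216 and -0.0474), which cannot show that they had no common origin. The labels give them only a shared number. With the replicate block over replicates 1 to 3, 9831 genes were called, against 10169 without it, and 5 of the 10 genes rose and 2 fell. Why results moved was not tested. Depth limits CXCL8, the ligands and most chemokines.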
